A study of Homo sapiens with 40 samples.

Results

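BT474R is a clone (clone 5) that grew out of BT474 cells kept in trastuzumab, an antibody against HER2, and it resists that drug. BT474 itself is a human breast cancer line with amplified HER2. Here, BT474R cells given 10 ng/mL heregulin (HRG) for 24 h were compared with BT474R cells given water, the vehicle, for 24 h. These are 4 of the 40 libraries of the series, which also covers BT474, EGF and other time points, and they were chosen by cell line, treatment and time alone. Both groups were serum starved beforehand and stayed in starvation medium during treatment. The libraries are called HRG 1, HRG 2, vehicle 1 and vehicle 2 after their replicate numbers. Treatments were made in duplicate, and nothing more is stated about how far the duplicates were separate. The p-values therefore measure the spread between duplicate libraries, which may be technical. For tests within BT474R that spread was estimated over its 20 libraries together, and the HRG pair at 24 h differed more than the other pairs.

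HRG is the product of the neuregulin 1 gene and binds HER3 and HER4, which then pair with HER2. HER3 has little kinase activity of its own, so in a HER2-positive cell the HER2-HER3 pair carries the signal into the PI3K/AKT and RAS/MAPK cascades. MAPK signaling switches on its own inhibitors (the DUSP phosphatases and the Sprouty and SPRED proteins) together with the ETS factors ETV1, ETV4 and ETV5, and growth factor signaling as a whole drives starved cells into the cell cycle through the E2F factors. The comparison asks which of these responses HRG raises in resistant cells after a day.

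Between 21836985 and 25644212 reads per library were counted on genes, and the 50 most abundant genes took between 13.4% and 14.8% of them. Values per library are CPM, the count scaled to a common library size after TMM normalization. The detection limit was set at 3 counts, or 0.117 to 0.137 CPM, and it covers counting error only. The cells carried the luminal epithelial and HER2 amplicon genes of BT474, with *ERBB2* between 6117 and 7112 CPM, and *EPCAM*, *KRT8*, *KRT18*, *KRT19*, *GRB7* and *STARD3* were at 303 CPM or more in every library, whereas *TFAP2B*, also on the BT474 marker list, was at 0.111 CPM or less. Of 12 fibroblast and 12 immune markers, 6 and 5 were tested and edgeR and DESeq2 called 0 of them, with 1 of each list at an unadjusted p under 0.05 in edgeR. EdgeR called 2.78% of all genes tested. The summed level of the tested immune markers was 2.22 and 2.86 CPM in the vehicle libraries and 3.56 and 3.27 CPM in the HRG libraries, and *PTPRC* was too low to be tested.

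The replicates differed widely, and the HRG libraries more than any other pair. Over 14792 genes with a mean of at least 1 CPM, the log2 gap between HRG 1 and HRG 2 had an SD of 0.340, whereas the other 9 groups of BT474R had SDs between 0.174 and 0.248. A total of 264 genes differed by more than 1 log2 unit between HRG 1 and HRG 2, and 18 to 71 genes did so in the other groups. The vehicle pair at 24 h had the next largest SD (0.248), and across genes its gap correlated with the HRG gap (Pearson's r = 0.42, genes not being independent). For the other pairs r lay between −0.20 (baseline) and 0.34 (HRG at 1 h), with 0.27 for EGF at 24 h. The HRG gap also went with GC content (Spearman's correlation 0.20 across the 87.3% of genes with a matched transcript), and so did the gap of other pairs with an ordinary SD, with 0.36 for EGF at 24 h (SD 0.198) and 0.20 for HRG at 12 h (SD 0.178), whereas the vehicle pair at 24 h had 0.00. The part of these differences in the results was not tested, and values are given by library below.

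HRG changed 675 of 24287 genes tested (2.78%), of which 459 were higher (1.89%) and 216 lower (0.889%) at an adjusted p under 0.05 in edgeR's quasi-likelihood test. Called genes had a median absolute log2 fold change of 0.36, with 64 genes over 1 and 476 under 0.5. The HRG libraries lay on the same side of both vehicle libraries for 673 of the 675 genes. The same libraries made the calls, so this was nearly fixed in advance and is no separate support. Of all genes tested, 16.9% (above) and 17.8% (below) had such a position. HRG 2 lay farther from the vehicle mean than HRG 1 for 476 of the 675 genes. The calls depended on which library was left out. Without vehicle 1, only 107 genes were called, and without vehicle 2, HRG 1 and HRG 2 the counts were 1236, 2307 and 500. A total of 84 genes, 42 higher and 42 lower, were called with the 4 libraries and with each of them left out in turn, which is 12.4% of the 675. When the fit held only these 4 libraries, edgeR called 0 genes, although 1181 had an unadjusted p under 0.05. The DESeq2 Wald test on the 20 BT474R libraries called 730.

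**Figure D1:**
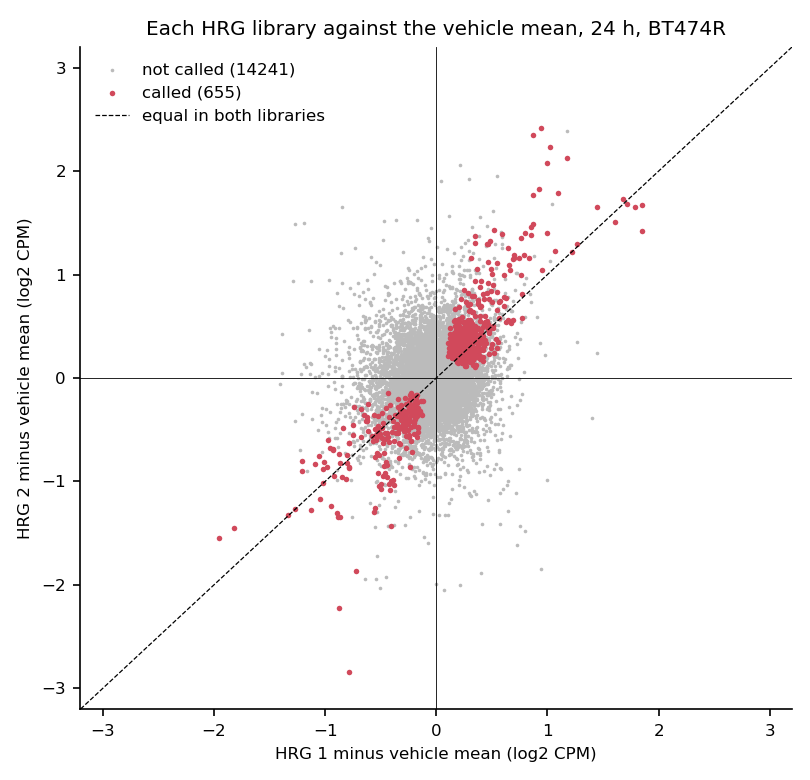
Difference of HRG 1 (horizontal axis) and HRG 2 (vertical axis) from the mean of the vehicle libraries at 24 h in BT474R, in log2 CPM, for tested genes with a mean of at least 1 CPM. Red points are the 655 called genes at this level, and they lie in the quadrants where both libraries moved the same way. The calls used these same libraries, so this was nearly fixed in advance. Of all 675 called genes, 476 lay farther from the vehicle mean in HRG 2.

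The 12 genes that rose most, among called genes of at least 1 CPM, included the ETS factors *ETV1* and *ETV4*, the keratin *KRT16*, the mucin *MUC2* and *S100A9*. *S100A9*, which encodes a calcium-binding protein of inflamed and keratinizing epithelia, had 2.22 and 2.76 CPM in vehicle 1 and 2, and 9.14 and 8.10 CPM in HRG 1 and 2. Both HRG libraries were about equally high, and the log2 fold change was 1.80 ± 0.15 (SE, n = 2 per group, edgeR adjusted p = 9.62e-07). *ACOX2*, a peroxisomal oxidase of branched fatty acids and bile acid intermediates, had 0.853 and 1.11 CPM in vehicle and 3.29 and 3.40 CPM in HRG (1.79 ± 0.25, adjusted p = 0.000398), again with HRG libraries that were nearly equal. *MUC2*, the gel-forming mucin of intestine, had 1.56 and 1.61 CPM in vehicle and 5.39 and 5.24 CPM in HRG (1.75 ± 0.30, adjusted p = 0.00235). The table holds 2 further rows of *MUC2* under numbered names, and the counting could split reads between them, so its level is uncertain. *ARHGDIB* (log2 fold change 1.61), and *TREM1*, a myeloid cell receptor (1.33), were also nearly equal in the HRG libraries.

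In other genes among the 12, HRG 2 was far above HRG 1. *MT2A*, a zinc-binding metallothionein, had 1.33 and 1.89 CPM in vehicle, 2.97 CPM in HRG 1 and 8.42 CPM in HRG 2. Its log2 fold change of 1.84 ± 0.47 (edgeR adjusted p = 0.0355) became 0.90 without HRG 2 and 2.38 without HRG 1. *CDH5*, which encodes VE-cadherin of endothelial junctions, had 0.667 and 0.737 CPM in vehicle, 1.51 CPM in HRG 1 and 3.59 CPM in HRG 2, and its log2 fold change of 1.86 ± 0.37 (adjusted p = 0.00736) became 1.10 without HRG 2. *CDH5* was the only called gene among 7 tested endothelial markers, where 1.89% of all genes tested were called higher. The summed level of those markers was 11.5 and 13.3 CPM in vehicle and 12.8 and 18.1 CPM in HRG, and *PECAM1* was at 0 in both vehicle libraries and at 0.0457 and 0.138 CPM in HRG. *FAM131B* (1.79), *PADI3* (1.73) and *KRT16* (1.54) likewise had their highest value in HRG 2. *PADI3*, an enzyme that citrullinates hair follicle proteins, had 0.593 CPM in vehicle 1 and 2.16 CPM in vehicle 2, the second being close to the 2.28 CPM of HRG 1.

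**Figure D2:**
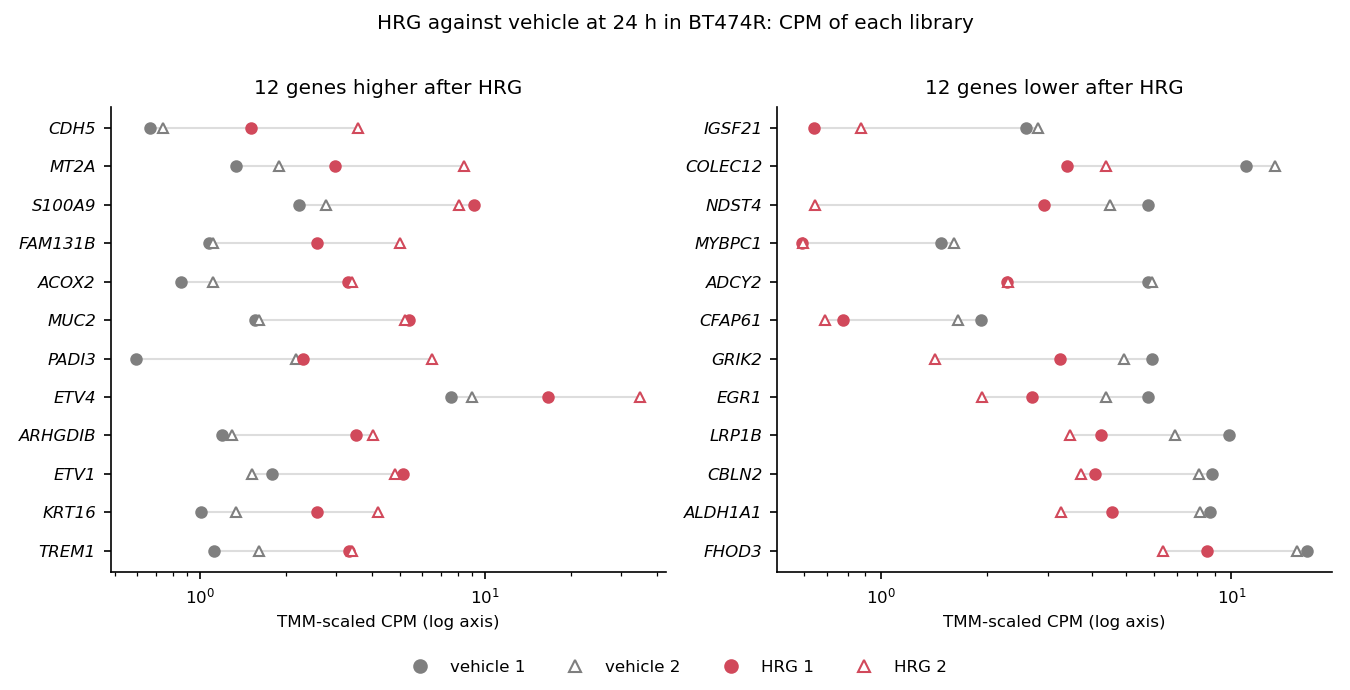
CPM (log axis) of each library for the 12 named genes that rose and the 12 named genes that fell after 24 h of HRG in BT474R. Grey points are vehicle and red points HRG, with circles for replicate 1 and open triangles for replicate 2. The HRG libraries nearly coincide for *ACOX2*, *ADCY2* and *MYBPC1* and lie far apart for *MT2A*, *NDST4* and *GRIK2*.

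The 12 genes that fell most included the synaptic genes *IGSF21* and *CBLN2*, the glutamate receptor gene *GRIK2* and the scavenger receptor gene *COLEC12*. *COLEC12*, a scavenger receptor of the collectin family, had 11.0 and 13.3 CPM in vehicle and 3.38 and 4.37 CPM in HRG (log2 fold change −1.64 ± 0.17, edgeR adjusted p = 8.08e-06). *IGSF21*, a synaptic adhesion protein, had 2.6 and 2.81 CPM in vehicle and 0.640 and 0.874 CPM in HRG (−1.83 ± 0.29, adjusted p = 0.00140). *ADCY2*, an adenylyl cyclase, had 5.78 and 5.94 CPM in vehicle and 2.28 and 2.30 CPM in HRG (−1.35 ± 0.15, adjusted p = 3.49e-05). In all 3 genes the groups were well apart. The HRG libraries were nearly equal for *ADCY2*, whereas HRG 2 was above HRG 1 by 0.36 and 0.41 on the log2 scale for *COLEC12* and *IGSF21*. *FHOD3*, a formin of actin filaments, had 16.4 and 15.4 CPM in vehicle and 8.54 and 6.4 CPM in HRG (−1.09), and *ALDH1A1*, which makes retinoic acid from retinal, had 8.68 and 8.15 CPM in vehicle and 4.57 and 3.27 CPM in HRG (−1.10). *NDST4*, an enzyme of heparan sulfate sulfation, depended most on 1 library. It had 5.78 and 4.51 CPM in vehicle, 2.92 CPM in HRG 1 and 0.644 CPM in HRG 2, and its log2 fold change of −1.53 ± 0.32 (adjusted p = 0.00992) became −0.83 without HRG 2 and −3.02 without HRG 1. *GRIK2*, a kainate receptor subunit, had 3.24 CPM in HRG 1 and 1.43 CPM in HRG 2 against 5.93 and 4.93 CPM in vehicle (−1.22). *MYBPC1* (−1.36), *CFAP61* (−1.29), *EGR1* (−1.15), *LRP1B* (−1.13) and *CBLN2* (−1.12) completed the list, and of the 24 named genes 5 that rose and 6 that fell kept their call with each library left out.

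Of 30 MAPK output and feedback genes tested, 9 rose and 1 fell, where 1.89% of all genes tested rose and 0.889% fell, and the median log2 fold change was 0.24, beside 0.01 over all genes tested. The median difference from the vehicle mean was 0.06 in HRG 1 and 0.36 in HRG 2. *DUSP6*, the phosphatase that inactivates ERK, had 57.0 and 58.3 CPM in vehicle, 97.8 CPM in HRG 1 and 147 CPM in HRG 2 (1.09 ± 0.11, edgeR adjusted p = 5.25e-06). *ETV5* had 28.4 and 29.8 CPM in vehicle and 48.9 and 65.0 CPM in HRG (0.97 ± 0.10, adjusted p = 4.88e-06). *ETV4* had 7.56 and 8.98 CPM in vehicle, 16.5 CPM in HRG 1 and 35.0 CPM in HRG 2 (1.65 ± 0.22, adjusted p = 0.000174). In these 3 genes the vehicle libraries were nearly equal and HRG 2 was well above HRG 1. *ETV1*, the third factor of this ETS family, was an exception with 5.16 CPM in HRG 1 and 4.83 CPM in HRG 2, against 1.78 and 1.52 CPM in vehicle (1.59 ± 0.20, adjusted p = 0.000125). The other genes that rose, named after their values were seen, were *SPRY4* (0.69), *IER3* (0.59), *SPRED1* (0.32), *DUSP5* (0.31) and *SPRED2* (0.23), with *IER3* uncertain because 5 further rows carry its name with a number. *EGR1*, an immediate early transcription factor, fell from 5.78 and 4.38 CPM in vehicle to 2.70 and 1.93 CPM (−1.15 ± 0.27, adjusted p = 0.0229). *DUSP6*, *ETV1*, *ETV4*, *ETV5* and *SPRY4* were called with each of the libraries left out, and the number of members that rose was between 5 and 14 across those 4 fits.

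Of the 22 lists, DNA replication and S phase had the largest share of called genes. Of 41 genes, 27 rose (against 1.89% of all genes tested), none fell, and the median log2 fold change was 0.31 (0.01 over all genes). Both HRG libraries were above both vehicle libraries for 36 of the 41 genes, against 16.9% of all genes tested. The median difference from the vehicle mean was 0.26 in HRG 1 and 0.37 in HRG 2. *PCNA*, the sliding clamp of DNA polymerase, had 98.0 and 121 CPM in vehicle and 144 and 148 CPM in HRG (0.42 ± 0.07, edgeR adjusted p = 0.00243). *CDC45*, part of the replicative helicase, had 33.3 and 35.9 CPM in vehicle and 45.0 and 46.0 CPM in HRG (0.40 ± 0.07, adjusted p = 0.00218). *RRM1*, the large subunit of ribonucleotide reductase, had 112 and 120 CPM in vehicle and 142 and 145 CPM in HRG (0.30 ± 0.05, adjusted p = 0.00235). In all 3 genes HRG 1 and HRG 2 were nearly equal. *MCM10* (0.42) and *MCM2* (0.31), of helicase loading and activation, also rose. The vehicle libraries were not level for this list, since 40 of the 41 genes were higher in vehicle 2 than in vehicle 1, and without vehicle 1 edgeR called 0 of the 41 genes, with 28 at an unadjusted p under 0.05. In bulk RNA, more cells in S phase and more RNA of these genes per cell cannot be told apart. Without HRG 2, 11 were called, and without vehicle 2 and HRG 1, 33 and 32.

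Promoters of 3 replication genes that rose and hold an E2F motif are shown because E2F factors are known to drive many genes of this list. A promoter here is the RefSeq sequence from 250 bases before to 50 bases after the start of a gene (GRCh38.p14), and 35 of the 41 genes matched one. The E2F motif was searched on both strands as TTTCCCGC, TTTGGCGC, TTTCGCGC or TTTGCCGC, whose matches can overlap one another. It occurred in 20 of the 35 promoters (57.1%), in 3.31% of all 35116 promoters in the table and in 4.61% of the 15109 promoters of tested genes. Among the replication genes, the match occurred in 15 of 26 called (57.7%) and 5 of 9 not called (55.6%). The 3 promoters below belong to the called genes with the largest log2 fold change among those with a match, and capitals mark the match. All 3 read 5′ to 3′ along the strand of the gene, and in *POLE2* and *PCNA* the match lies on the other strand, so the capitals show its reverse complement.
POLE2 (chr14:49688165-49688464, minus strand): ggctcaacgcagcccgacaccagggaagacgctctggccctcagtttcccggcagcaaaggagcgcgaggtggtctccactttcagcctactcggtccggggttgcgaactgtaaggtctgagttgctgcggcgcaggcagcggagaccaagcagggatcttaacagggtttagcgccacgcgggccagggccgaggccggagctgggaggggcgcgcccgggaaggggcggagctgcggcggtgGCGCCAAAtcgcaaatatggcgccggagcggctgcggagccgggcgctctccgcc
CDC6 (chr17:40287629-40287928, plus strand): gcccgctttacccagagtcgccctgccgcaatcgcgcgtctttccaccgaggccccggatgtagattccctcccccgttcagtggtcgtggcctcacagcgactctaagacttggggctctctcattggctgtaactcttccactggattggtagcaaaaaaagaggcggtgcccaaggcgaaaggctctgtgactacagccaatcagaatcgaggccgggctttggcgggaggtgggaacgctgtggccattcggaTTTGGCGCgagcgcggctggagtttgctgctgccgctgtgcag
PCNA (chr20:5126573-5126872, minus strand): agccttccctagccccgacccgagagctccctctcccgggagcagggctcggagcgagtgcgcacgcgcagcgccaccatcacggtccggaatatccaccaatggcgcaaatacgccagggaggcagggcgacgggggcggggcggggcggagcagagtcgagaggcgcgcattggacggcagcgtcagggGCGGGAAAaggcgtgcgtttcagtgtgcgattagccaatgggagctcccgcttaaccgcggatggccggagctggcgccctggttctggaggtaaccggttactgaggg
The match begins 5 bases before the start of *POLE2*, a subunit of DNA polymerase epsilon, at base 8 of *CDC6*, which loads the helicase onto origins, and 59 bases before the start of *PCNA*. *POLE2* had 7.42 and 8.29 CPM in vehicle and 10.4 and 12.8 CPM in HRG (log2 fold change 0.56 ± 0.12, edgeR adjusted p = 0.0141). *CDC6* had 57.4 and 77.5 CPM in vehicle and 82.3 and 97.4 CPM in HRG (0.42 ± 0.10, adjusted p = 0.0285). For *CDC6*, vehicle 2 was closer to HRG 1 than to vehicle 1.

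Of 40 mitosis genes, 18 rose (against 1.89% of all genes tested), none fell, and the median log2 fold change was 0.24 (0.22 in HRG 1 and 0.28 in HRG 2). *MKI67*, the proliferation antigen Ki-67, had 283 and 291 CPM in vehicle and 340 and 347 CPM in HRG (0.26 ± 0.05, edgeR adjusted p = 0.00784). *ECT2*, which sets the cleavage plane, had 181 and 200 CPM in vehicle and 228 and 236 CPM in HRG (0.29 ± 0.05, adjusted p = 0.00298). *CCNA2*, cyclin A2, had 34.8 and 39.7 CPM in vehicle and 46.5 and 53.3 CPM in HRG (0.42 ± 0.08, adjusted p = 0.00384). *BUB1B* (0.34) and *CDK1* (0.37) were the other members named by the rule. No member of the list had HRG libraries below both vehicle libraries, a position that 17.8% of all genes tested had. Only 2 of 34 mitosis promoters (5.88%) held the E2F motif. Of the 40 genes, 32 were higher in vehicle 2 than in vehicle 1. Without vehicle 1 edgeR called 0 of them, with 25 at an unadjusted p under 0.05, and without HRG 2, 9 were called.

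**Figure D3:**
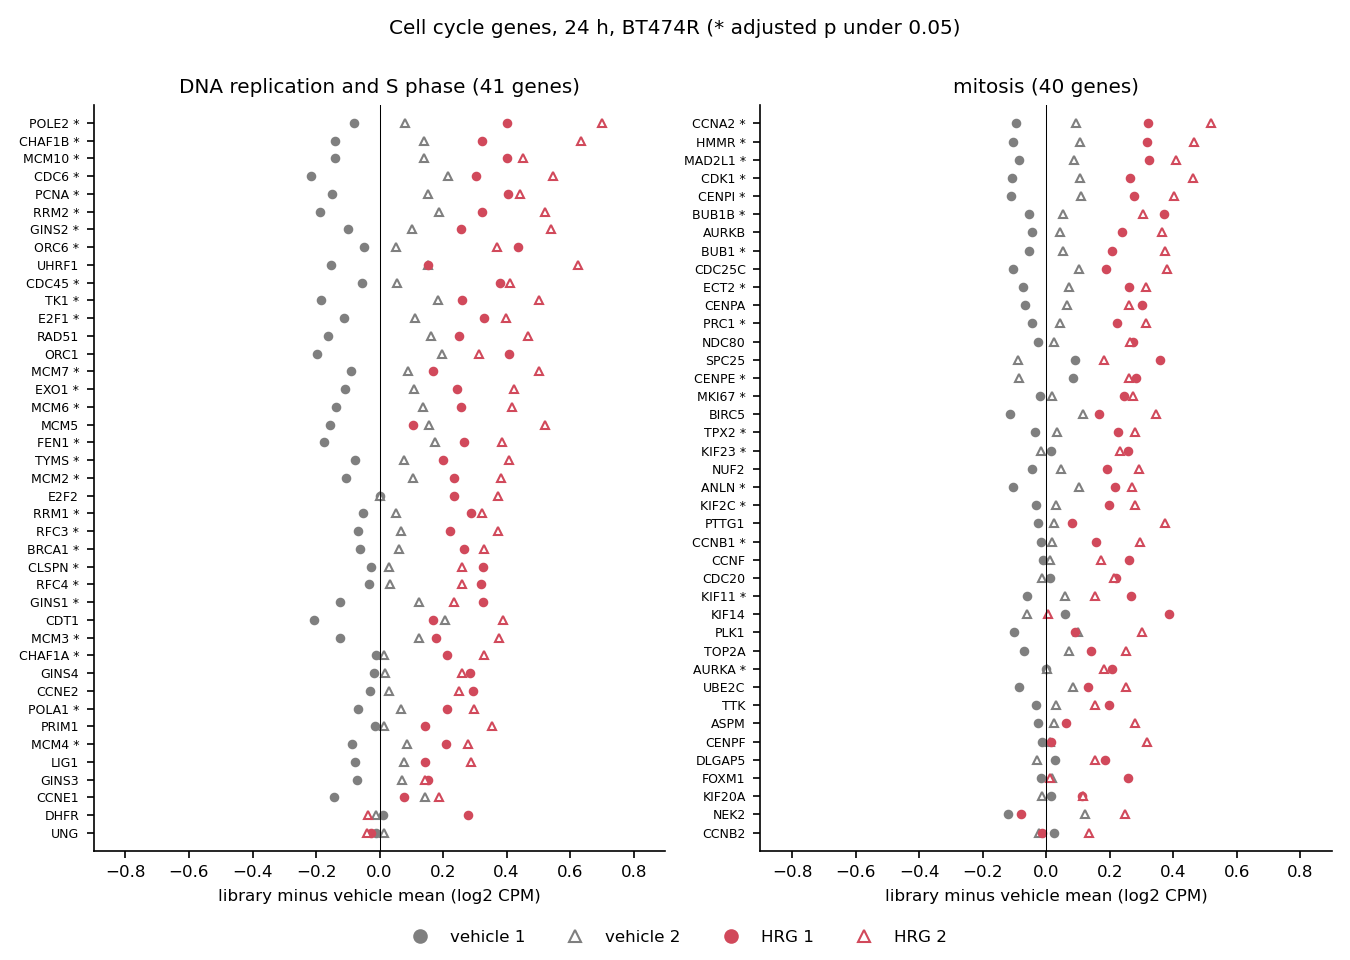
Each library's difference from the mean of the vehicle libraries, in log2 CPM, for the 41 DNA replication and S phase genes and the 40 mitosis genes tested, ordered by log2 fold change, with an asterisk for adjusted p under 0.05. Red HRG points lie to the right of both grey vehicle points for 36 and 35 genes, against 16.9% of all genes tested. Vehicle 2 (grey triangle) lies to the right of vehicle 1 for 40 and 32.

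The estrogen and progesterone receptors fell. Of 23 hormone response and luminal genes tested, 5 fell and 2 rose (against 0.889% and 1.89% of all genes tested), and the median log2 fold change was −0.02. *ESR1*, the estrogen receptor, had 107 and 92.2 CPM in vehicle, 72.0 CPM in HRG 1 and 55.1 CPM in HRG 2 (−0.65 ± 0.10, edgeR adjusted p = 0.000748), and it was the only member called with each library left out. *GATA3*, a factor of luminal identity, had 46.7 and 38.1 CPM in vehicle, 31.8 CPM in HRG 1 and 21.1 CPM in HRG 2 (−0.68 ± 0.14, adjusted p = 0.00673). In both genes the HRG values lay below the vehicle values, with HRG 2 the lowest. *GREB1*, an estrogen target, fell by 0.33 on the log2 scale and was equal in the HRG libraries, at 58.6 and 58.7 CPM. Named after their values were seen, *PGR*, the progesterone receptor, fell by 0.55, whereas *SLC45A3*, a transporter gene of the prostate, and *TFF1*, an estrogen target, rose by 0.86 and 0.38. For *TFF1* the HRG 1 value of 81.4 CPM was not above the 81.5 CPM of vehicle 2.

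Of 27 secreted matrix and integrin genes tested, 7 rose and 3 fell (against 1.89% and 0.889% of all genes tested), with a median log2 fold change of 0.13. *TNC*, the matrix protein tenascin C, had 79.9 and 77.3 CPM in vehicle and 135 and 117 CPM in HRG (0.68 ± 0.06, edgeR adjusted p = 1.24e-06). It was one of the genes in which HRG 1 was the higher library. *TNC* and *COLEC12* were called with each library left out. *ITGA2*, the collagen receptor subunit, fell from 11.3 and 11.8 CPM to 8.86 and 7.59 CPM (−0.49 ± 0.10, adjusted p = 0.00866). Further calls, named after their values were seen, were *ITGA5* (0.90), *TIMP1* (0.66), *LAMB3* (0.58), *ITGB6* (0.43) and *ITGB4* (0.25) higher and *THBS1* (−0.32) lower, and for *ITGA5* the HRG 1 value of 4.75 CPM lay below the 4.84 CPM of vehicle 2.

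Of 28 neural adhesion and heparan sulfate genes tested, 4 fell and 1 rose (against 0.889% and 1.89% of all genes tested), with a median log2 fold change of −0.19 (−0.13 in HRG 1 and −0.28 in HRG 2). Besides *NDST4*, *IGSF21* and *ADCY2*, *HS6ST3*, a heparan sulfate 6-O-sulfotransferase, fell from 33.3 and 33.8 CPM in vehicle to 27.8 and 26.4 CPM (−0.31 ± 0.08, edgeR adjusted p = 0.0288). *SULF2*, which removes 6-O-sulfates from heparan sulfate outside the cell, rose from 26.0 and 26.8 CPM to 41.8 CPM in HRG 1 and 54.7 CPM in HRG 2 (0.87 ± 0.09, adjusted p = 8.51e-06). *SULF2*, *ADCY2* and *IGSF21* were called with each library left out.

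Calls in the lists of epithelial products stand against 1.89% higher and 0.889% lower among all genes tested. Of 32 epidermal differentiation genes tested, 3 rose and none fell, namely *S100A9*, *KRT16* and *S100P*. The median log2 fold change was 0.51 over a range from −2.40 to 3.90. The groups overlapped in 21 of the 32 genes, and in 15876 of all 24287 genes tested. *S100A7* was near or below the detection limit, with 0.0742 and 0 CPM in vehicle and 0 and 0.138 CPM in HRG. *S100P*, a calcium-binding protein of carcinomas, had 30.3 and 34.7 CPM in vehicle and 40.8 and 50.5 CPM in HRG (0.49 ± 0.09, edgeR adjusted p = 0.00305). Of 18 mucin and secretory genes, 3 rose and none fell, namely *MUC2*, *AGR2* and *AQP3*, with a median of 0.14. *AGR2*, a protein disulfide isomerase that folds mucins, had 167 and 187 CPM in vehicle, 217 CPM in HRG 1 and 277 CPM in HRG 2 (0.48 ± 0.07, adjusted p = 0.000934) and kept its call with each library left out. *AQP3*, a water and glycerol channel, had 6.53 and 8.61 CPM in vehicle, 9.59 CPM in HRG 1 and 18.6 CPM in HRG 2 (0.91 ± 0.22, adjusted p = 0.0232), so that its rise lay mostly in HRG 2. *MT2A* and *CDH5* were the only calls among 7 metallothionein and zinc genes and 23 cadherin and junction genes, and *CDH1*, the E-cadherin of these cells, had 875 and 887 CPM in vehicle and 844 and 779 CPM in HRG (−0.12 ± 0.04, adjusted p = 0.194).

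Of 27 integrated stress response genes, 5 rose (against 1.89% of all genes tested) and none fell, with a median log2 fold change of 0.15. *MTHFD2*, a mitochondrial enzyme of one-carbon metabolism, had 139 and 153 CPM in vehicle and 174 and 187 CPM in HRG (0.31 ± 0.05, edgeR adjusted p = 0.00235). *ATF4*, the transcription factor of this response, had 303 and 352 CPM in vehicle and 363 and 426 CPM in HRG (0.27 ± 0.07, adjusted p = 0.0309). *PSAT1* (0.26), of serine synthesis, *CEBPG* (0.23) and *SLC1A5* (0.22), a glutamine transporter, were the other genes that rose. Both HRG libraries were above both vehicle libraries for 12 of the 27 genes, against 16.9% of all genes tested, and the groups overlapped in 13. The 5 called genes were picked by their difference in these same libraries, so their own position is no further support. In each of the 5 genes both HRG libraries were above both vehicle libraries, and without vehicle 1 edgeR called 0 of the list, with 6 higher at an unadjusted p under 0.05.

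The libraries lay in another order for lipid and glycolysis genes. Of 35 sterol and fatty acid synthesis genes, 1 rose and 1 fell (against 1.89% and 0.889% of all genes tested), and the median log2 fold change was 0.28. In 32 of the 35 genes vehicle 2 was above vehicle 1, and the summed level was 21822 and 31577 CPM in vehicle 1 and 2 and 27529 and 36315 CPM in HRG 1 and 2. HRG 1 thus lay between the vehicle libraries, so the groups overlapped. Compared by replicate number, which no source ties to a shared culture, HRG 1 was above vehicle 1 in 30 of the 35 genes and HRG 2 above vehicle 2 in 27, and over all 24287 genes these counts were 12952 and 11877. Without vehicle 2 and without HRG 1, 23 and 20 of these genes rose, and without vehicle 1 and without HRG 2 edgeR called 0 higher, with 1 and 3 at an unadjusted p under 0.05. *ME1*, which supplies NADPH for lipid synthesis, had 47.9 and 65.0 CPM in vehicle and 68.3 and 76.9 CPM in HRG (0.37 ± 0.09, edgeR adjusted p = 0.0274). *ABCA1*, the cholesterol exporter, fell from 20.1 and 17.1 CPM to 14.8 and 11.9 CPM (−0.48 ± 0.11, adjusted p = 0.0232). *SREBF1*, the factor that drives lipid synthesis genes, had 270 and 297 CPM in vehicle and 269 and 288 CPM in HRG (−0.03 ± 0.05, adjusted p = 0.897). The 35 HIF target and glycolysis genes had the same order of libraries, with summed levels of 11787 and 15828 CPM in vehicle and 13660 and 17689 CPM in HRG, and a median log2 fold change of 0.15. EdgeR called 0 of them and DESeq2 1, with 8 at an unadjusted p under 0.05 in edgeR, all higher.

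Of 13 ERBB receptors and ligands tested, 1 fell (against 0.889% of all genes tested), which was *ERBB4*, the HRG receptor HER4, with 15.5 and 14.0 CPM in vehicle and 10.7 and 8.37 CPM in HRG (−0.63 ± 0.11, edgeR adjusted p = 0.00260). *ERBB3* had 307 and 334 CPM in vehicle and 285 and 331 CPM in HRG (−0.06 ± 0.06, adjusted p = 0.735), and *ERBB2* had a log2 fold change of −0.09 ± 0.05 (adjusted p = 0.390). *EGFR*, the receptor of EGF, had 985 and 1187 CPM in vehicle and 1082 and 1171 CPM in HRG, with the groups overlapping. Of 20 genes tested in a list of FOXO factors, FOXO targets and insulin receptor feedback genes, only *SESN3*, a sestrin, was called. It fell, as did 0.889% of all genes tested. *SESN3* had 7.97 and 10.1 CPM in vehicle and 6.03 and 5.84 CPM in HRG (−0.60 ± 0.14, edgeR adjusted p = 0.0241). Of 30 interferon-stimulated genes edgeR and DESeq2 called 0, with 3 lower at an unadjusted p under 0.05 in edgeR. Of 23 inflammatory mediators only *TNFAIP2* was called, and it rose (0.43 ± 0.10, edgeR adjusted p = 0.0284). Over all genes tested, edgeR called 2.78%, with 1.89% higher. *IRF1* had 1.48 and 2.35 CPM in vehicle and 1.87 and 2.25 CPM in HRG, within the spread of the vehicle libraries. *RNR1* and *RNR2*, the mitochondrial ribosomal RNAs, were the 2 tested members of 15 mitochondrial genome genes, and neither was called, with log2 fold changes of 0.13 and −0.03.

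To see how far the response had moved since 12 h, the genes HRG called at 12 h were followed in the 24 h libraries, which share no sample with them. HRG changed 1000 genes at 12 h (4.12%), with 579 higher (2.38%) and 421 lower (1.73%). Of the 579 that rose at 12 h, 88.6% were above the vehicle mean in HRG 1 and 91.9% in HRG 2 at 24 h. Over all 24287 genes tested, 12453 and 12665 were above it. Of the 579, 209 were called in the same direction and 1 in the opposite one, where 1.89% of all genes tested were called higher at 24 h. These 209 are 36.1% of the genes that rose at 12 h and 45.5% of those that rose at 24 h. The median log2 fold change of the 579 genes was 0.40 at 12 h, in the libraries that chose them, and 0.25 at 24 h (0.19 in HRG 1 and 0.30 in HRG 2). Of the 421 that fell at 12 h, 85.5% and 92.4% lay below the vehicle mean in HRG 1 and HRG 2, and 117 were called lower again. These 117 are 27.8% of those that fell at 12 h and 54.2% of those that fell at 24 h, where 0.889% of all genes tested fell at 24 h.

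A direct test of the effect at 24 h against that at 12 h called 7 genes (0.0288%), each with a smaller or reversed effect at 24 h. They were the actins *ACTB* and *ACTG1*, the actin cross-linker *FLNA*, the junction protein *LMO7*, the integrin *ITGB4*, the membrane repair protein *MYOF* and *SPNS2*, a sphingosine 1-phosphate transporter. *ACTB*, β-actin, had 3815 and 3924 CPM in vehicle and 5008 and 5058 CPM in HRG at 12 h, and 3332 and 3375 CPM in vehicle and 3310 and 3369 CPM in HRG at 24 h (difference of log2 fold changes −0.39 ± 0.06, edgeR adjusted p = 0.00528). *ITGB4*, of hemidesmosomes, had 160 and 154 CPM in vehicle and 282 and 297 CPM in HRG at 12 h, and 137 and 149 CPM in vehicle and 160 and 181 CPM in HRG at 24 h (−0.63 ± 0.09, adjusted p = 0.00472). *MYOF* had a log2 fold change of 0.84 at 12 h and 0.20 at 24 h (−0.64 ± 0.10, adjusted p = 0.0142). At 24 h its HRG libraries were nearly equal, at 32.1 and 31.5 CPM. *SPNS2* rose at both times (1.03 at 12 h and 0.39 at 24 h), and *LMO7* (0.55 and 0.10) and *FLNA* (0.44 and 0.09) were called at 12 h alone. *ACTG1*, γ-actin, was higher at 12 h (0.20 ± 0.04) and lower at 24 h (−0.17 ± 0.04), and both changes were called. Of the 7 genes, all but *MYOF* and *FLNA* kept their call with each of the 4 libraries left out, and *MYOF* and *FLNA* kept it in 3 of the 4 fits.

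**Figure D4:**
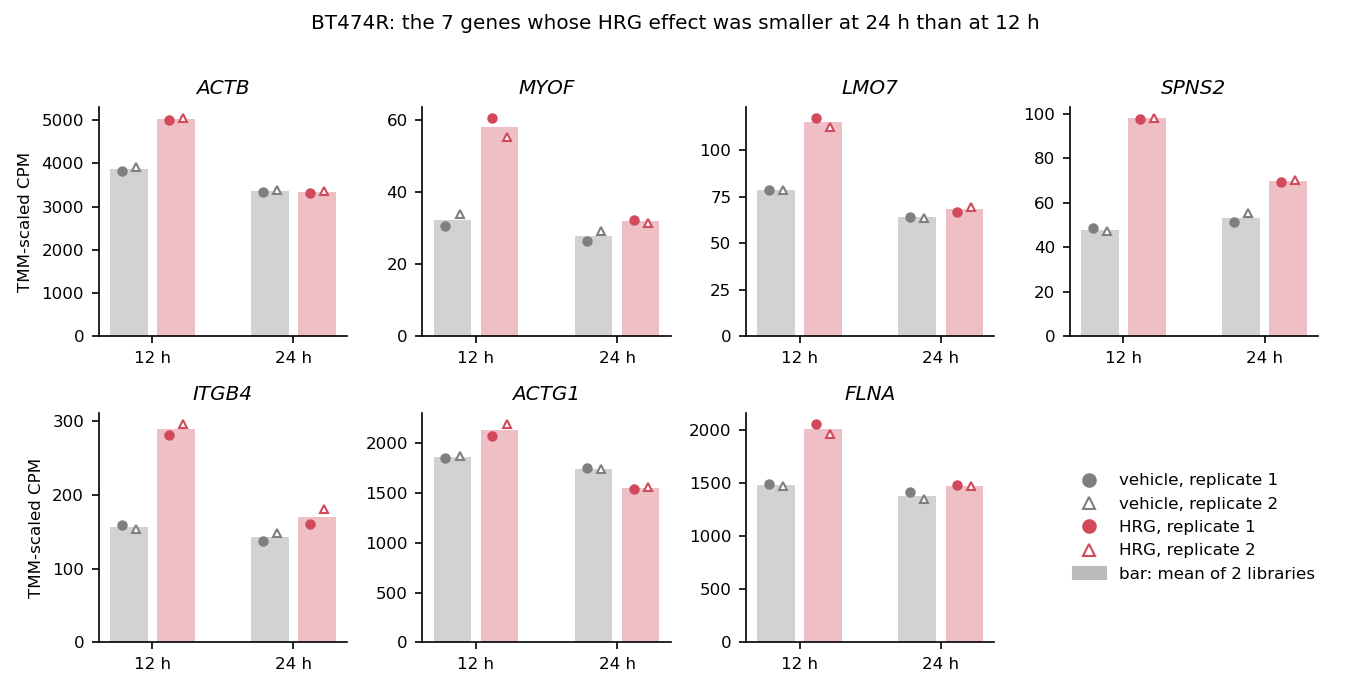
CPM of the 7 genes whose HRG effect in BT474R was smaller at 24 h than at 12 h, with bars for the mean of 2 libraries, circles for replicate 1 and open triangles for replicate 2, vehicle in grey and HRG in red. At 12 h both HRG libraries lie above both vehicle libraries in each gene, and at 24 h the gap is smaller, with *SPNS2* and *ITGB4* still called higher and *ACTG1* called lower.

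In BT474, the trastuzumab-sensitive parent line, HRG at 24 h changed 5349 of 24641 genes (21.7%) in the fit of all 40 libraries. The effect differed between the lines for 821 genes (3.33%), with 306 more positive (1.24%) and 515 more negative (2.09%) in BT474R. Among the 10 genes named for their difference, 5 fell in BT474 and were not called in BT474R. *KCNJ13*, a potassium channel, had 11.2 and 11.6 CPM in vehicle and 1.95 and 1.80 CPM in HRG in BT474, and 0.50, 0.564, 0.279 and 0.657 CPM in the same order in BT474R (difference 2.41 ± 0.58, edgeR adjusted p = 0.0109). The call of *KCNJ13* was lost without HRG 2 (1.71). *STXBP5L*, a regulator of vesicle fusion, had 15.1 and 13.3 CPM in vehicle and 2.83 and 1.84 CPM in HRG in BT474, and at most 1.5 CPM in BT474R (2.21 ± 0.42, adjusted p = 0.000881). Without HRG 1 its difference was 1.24 and was not called. *PTPRQ*, a receptor phosphatase of the inner ear, differed by 3.04, *IGFBP3*, which binds insulin-like growth factors, by 2.21 and *ALPL*, an alkaline phosphatase, by 1.96. In BT474, *PTPRQ* had 2.78 and 2.32 CPM in vehicle and 0.337 and 0.410 CPM in HRG. In BT474R it was low already in vehicle, at 0.461 and 0.753 CPM, and had 0.745 and 0.704 CPM in HRG. *ALPL* had 0.706 and 0.645 CPM in BT474 vehicle and 3.11 and 3.48 CPM in BT474R vehicle.

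The other 5 rose in BT474 and had a smaller effect in BT474R. *H19*, an imprinted long noncoding RNA, had 6.49 and 5.16 CPM in vehicle and 58.6 and 72.3 CPM in HRG in BT474. In BT474R it was at 3067 and 3978 CPM in vehicle and had 5569 and 7680 CPM in HRG, so the log2 fold changes were 3.5 ± 0.24 and 0.91 ± 0.15 (difference −2.59 ± 0.29, edgeR adjusted p = 1.36e-07). *AREG*, the EGFR ligand amphiregulin, had 3.39 and 2.62 CPM in vehicle and 19.3 and 17.3 CPM in HRG in BT474, and between 0.516 and 0.698 CPM in every BT474R library (−2.53 ± 0.48, adjusted p = 0.000776). *AKR1B10*, an aldo-keto reductase, had 0.329 and 0.152 CPM in vehicle and 1.72 and 1.93 CPM in HRG in BT474, and between 6.73 and 9.19 CPM in BT474R (−2.75 ± 0.38, adjusted p = 6.72e-06). *CDH5* had 0 and 0.228 CPM in vehicle and 3.00 and 3.69 CPM in HRG in BT474, and differed by −2.82 ± 0.74 (adjusted p = 0.0243). *ACOX2* was under the detection limit in both BT474 vehicle libraries and was at least 12.8-fold higher with HRG there, by a limit of 3 counts per library, and its difference of −3.38 depends on the prior count.

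**Figure D5:**
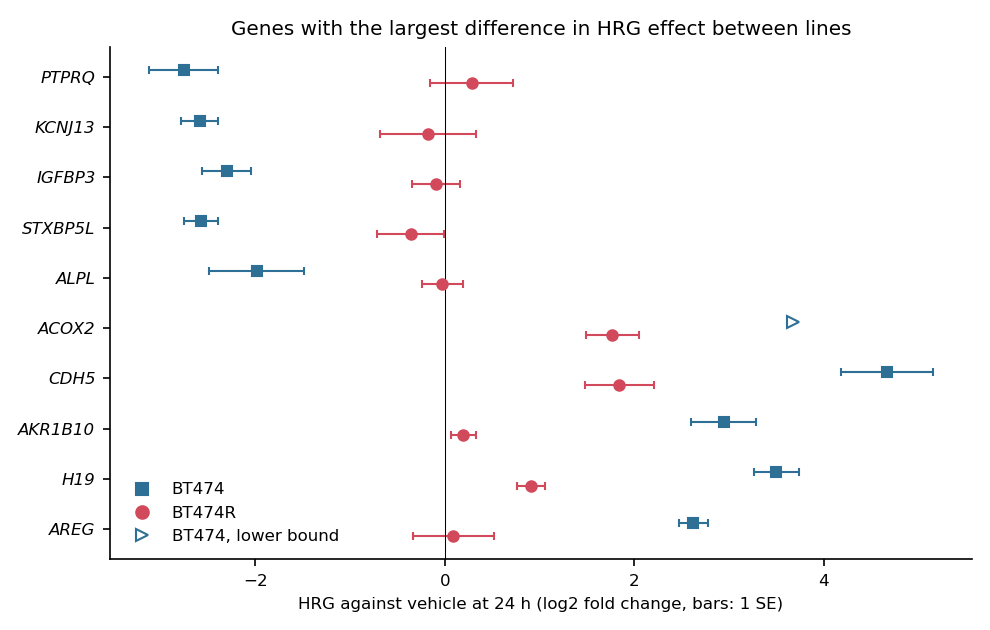
Log2 fold change of HRG against vehicle at 24 h with its SE in BT474 (blue squares) and BT474R (red circles), for the 5 genes per direction with the largest difference between lines. The open triangle is a lower bound for *ACOX2* in BT474. BT474R values lie between −0.36 and 1.84, nearer to 0 than those of BT474 in each of the 10 genes.

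Of the lists, MAPK output held 4 genes with a more positive and 7 with a more negative effect in BT474R than in BT474, among 30. Over all genes tested these shares were 1.24% and 2.09%. *DUSP6* was one of the 7 MAPK genes, with a log2 fold change of 1.96 in BT474 and a difference of −0.89 (edgeR adjusted p = 3.10e-05). Of 40 mitosis genes, 10 had a more negative effect in BT474R (against 2.09% of all genes tested), and the medians were 0.48 in BT474 and 0.23 in BT474R. The 41 replication genes had a median log2 fold change of 0.32 in BT474 and 0.29 in BT474R. *TNC* (−1.14, edgeR adjusted p = 1.82e-11) and *ITGB6* (−1.53, adjusted p = 1.40e-10) rose less in BT474R. In all, 6 of 29 matrix genes had a more negative and 1 a more positive effect, against 2.09% and 1.24% of all genes tested.

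The genes with the widest gap between the HRG libraries are given as a description, with no test. *ZKSCAN8*, a zinc finger gene, had 11.5 and 16.3 CPM in vehicle, 7.58 CPM in HRG 1 and 26.0 CPM in HRG 2, so the HRG libraries lay on either side of the vehicle libraries. *PSTPIP2*, an adaptor of the actin cytoskeleton, had 4.34 and 5.48 CPM in vehicle, 2.65 CPM in HRG 1 and 11.4 CPM in HRG 2. *SPHK2*, a sphingosine kinase, went the other way with 27.0 and 15.6 CPM in vehicle, 32.2 CPM in HRG 1 and 8.37 CPM in HRG 2. *SYP*, the synaptic vesicle protein synaptophysin, had 11.9 and 6.72 CPM in vehicle, 14.7 CPM in HRG 1 and 4.09 CPM in HRG 2. In each of these genes, and in *RPS6KL1*, *RIMS4*, *TMOD2*, *TMEM198*, *LRTM2* and *ZNF143*, the gap between vehicle 2 and vehicle 1 had the same sign as the gap between HRG 2 and HRG 1, and none of the 10 was called.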

How the data were processed

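RNA was collected from BT474 and BT474R cells, and libraries were made with an mRNA HyperPrep kit. Per the labels, the authors trimmed reads with Trim Galore 0.6.6, checked them with FastQC and MultiQC, aligned them to GRCh38.p13 and deposited raw counts per gene from featureCounts. Which annotation was counted, whether strand was used and how multi-mapping reads were treated is not given in the sources used here, so overlapping and antisense genes cannot be told apart. The table holds 44584 names, of which 5078 repeat another name with a number added and hold 2.96% of counts. Such copies were tested but not named.

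The 20 BT474R libraries (10 groups of 2) were fitted together with edgeR 4.0.16 (quasi-likelihood F test, TMM, R 4.3.3), keeping 24287 genes with at least 1 count in 10 libraries, and p-values were adjusted by Benjamini-Hochberg at 0.05. SE is the absolute log2 fold change divided by the square root of F. The lines were compared by an interaction in 1 fit of all 40 libraries (24641 genes). Differences per library used log2 CPM with a prior count of 2. Named genes were up to 12 per direction with the largest log2 fold change (called, at least 1 CPM, groups not overlapping, no LOC, LINC, MIR or antisense names), every gene called in the comparison of times, 5 per direction between lines and in the gap between HRG libraries (at least 5 CPM), and the first gene and 4 members with the lowest adjusted p of each list. The members, lists and rules were chosen with earlier results of these data known. No set test was run. The scripts were tested on simulated data. Alternatives were DESeq2 1.42.0, other size factors and filters, replicate blocks, thinning to equal depth, other sets of libraries, and each library left out. Replicate numbers were not taken as pairs, since only 2 pairs exist and no source ties equal numbers to one culture or day. EGF, baseline and 1 h libraries entered the fit only to estimate the spread. Some called members of the lists are counted but not reported here by name.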

Additional observations from a re-analysis of the deposited data

Results flagged for a closer look

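In BT474R the HRG effect at 24 h differed from that at 12 h for 7 genes (0.0288% of those tested, edgeR interaction test). The log2 differences were −0.39 for *ACTB*, −0.64 for *MYOF*, −0.45 for *LMO7*, −0.64 for *SPNS2*, −0.63 for *ITGB4*, −0.37 for *ACTG1* and −0.34 for *FLNA*, so that each effect was lower at 24 h. The 12 h and 24 h libraries are separate samples, and their vehicle libraries are separate too.

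The HRG effect at 24 h differed between BT474R and BT474 for 821 genes (3.33%, edgeR interaction test). The log2 differences, BT474R minus BT474, were 3.04 for *PTPRQ*, 2.41 for *KCNJ13*, 2.21 for *IGFBP3*, 2.21 for *STXBP5L* and 1.96 for *ALPL*. They were −3.38 for *ACOX2*, −2.82 for *CDH5*, −2.75 for *AKR1B10*, −2.59 for *H19* and −2.53 for *AREG*. With 1 of the 4 BT474R libraries left out, 4 of the 10 genes lost their call in some fits. *CDH5* lost it without vehicle 1 (−2.88) or vehicle 2 (−2.77), *ALPL* without vehicle 1 (1.88) or HRG 2 (1.70), *KCNJ13* without HRG 2 (1.71) and *STXBP5L* without HRG 1 (1.24).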

How the results depend on the processing

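The number of genes called for HRG at 24 h (675), for 24 h against 12 h (7) and between lines (821) depended on the libraries in the fit. With 1 library left out they were 107 to 2307, 8 to 113 and 647 to 1520. The lowest count for HRG came without vehicle 1 and the highest without HRG 1. Of the replication, mitosis and MAPK genes, 0 to 33, 0 to 20 and 5 to 14 rose in those fits. With only the libraries of the groups compared, edgeR called 0, 0 and 85 genes, with 1181 and 867 at an unadjusted p under 0.05 for the first pair, and 0 genes of each of the 3 lists. This fit has fewer residual degrees of freedom, and it takes the spread from those groups alone. The HRG and vehicle pairs at 24 h had the widest replicate gaps in BT474R (SD 0.340 and 0.248). Both lines in 1 fit gave 1137 and 32 genes, no filter on low counts 1147 and 105, and DESeq2's Wald test 730, 24 and 753. Libraries thinned to equal depth gave 419 genes for HRG and 526 between lines, with 17 replication and 5 MAPK genes. The cause of these shifts was not tested. The replicate number as a block gave 785, 8 and 891 genes, with 28 replication, 20 mitosis and 10 MAPK genes. As a block within each time point it gave 1058, 15 and 1094. The gap between replicates of the HRG group correlated with that of the vehicle group (r = 0.42 across genes). For the other BT474R pairs r lay between −0.20 and 0.34. DESeq2's size factors (678, 7 and 762) and filterByExpr (769, 7 and 831) moved the counts little. Over the genes named and the called list members, 1265 values kept their direction and call and 333 kept their direction only, and none reversed. These genes were chosen for their calls in the main fit, and the alternatives reuse its libraries. A reversal was therefore unlikely from the start, and its absence is no separate support for the directions. With only the 4 libraries compared, the adjusted p of every one of these genes for HRG at 24 h was 0.828. At 3 counts as the limit of detection, levels under 0.137 CPM are not resolved.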
